A study of Mus musculus with 3 samples.

Results

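The Ikaros family of zinc finger transcription factors was followed through the first steps of innate lymphoid cell (ILC) development in mouse bone marrow. The members are the genes Ikzf1 (Ikaros), Ikzf2 (Helios), Ikzf3 (Aiolos) and Ikzf5 (Pegasus), found by symbol in every deposited matrix, which makes 4 of the 27998 genes listed. Ikzf4 (Eos), the remaining gene of the family, is given beside them where the whole family is counted. ILCpro_KO is the library of ILC progenitors from mice labelled Tcf7EGFPnull/-, that is, null for Tcf7, which encodes TCF-1. ILCpro_WT holds progenitors sorted through the same gate (Lin- Kit+ 2B4+ a4b7+ Tcf7+) from Tcf7EGFP/+ mice, so these controls carry 1 reporter allele and are not unmodified wild type. ALP, the all-lymphoid progenitors, came from Tcf7EGFP/+ mice by a different gate (Lin- Kit+ 2B4+ a4b7- Flt3high IL-7Ra+). All mice were C57BL/6, and ages, sexes and pooling of animals are not given in the sources used here. Each population was measured as 1 library of single cells made with 10x Chromium v2 chemistry, which reads one end of each transcript and counts unique molecules (UMIs). With 1 library per group there is no replicate check and no test, and the intervals given below cover counting error only.

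Ikaros family proteins bind DNA through zinc fingers at one end and pair with each other through zinc fingers at the other, so the mixture of members in a cell sets which dimers can form. They recruit chromatin machinery such as the NuRD complex and act mostly in blood cells. Ikaros is needed for the earliest lymphoid progenitors, Helios is best known from T cell lineages, and Aiolos appears later, in maturing lymphocytes. TCF-1 is an HMG box factor required for the ILC progenitor stage sampled here.

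The ILCpro_KO library held 716 cells after filtering and 4384061 UMIs, the ILCpro_WT library 1829 cells and 6094683 UMIs, and the ALP library 810 cells and 4115605 UMIs. Median UMIs per cell were 5309 in ILCpro_KO, 2897 in ILCpro_WT and 4544.5 in ALP, so cells of ILCpro_WT were the shallowest. At most 4 barcode sequences were shared between any pair of libraries. Tcf7 itself stood at 57.3 CPM (UMI counts scaled to a common library total; 251 UMIs) in ILCpro_KO, 362 CPM in ILCpro_WT and 1.46 CPM in ALP. It was 6.33-fold lower in ILCpro_KO than in ILCpro_WT and not at 0. Whether the counted end of the transcript lies in the removed part of the null allele is not given in the sources used here. The ILCpro_KO library stood apart in its myeloid genes. All 11 neutrophil and monocyte markers looked for were detected there and summed to 4745 CPM, against 494 CPM with 9 detected (Ngp and Camp at 0) in ILCpro_WT and 979 CPM with 11 detected in ALP. T cell markers, 6 of 7 detected with Cd8a at 0, summed to 150 CPM in ILCpro_KO, against 83.4 CPM with 6 of 7 and Cd4 at 0 in ILCpro_WT and 6.80 CPM with 3 of 7 in ALP. Thy1 made up most of the ILCpro_WT sum, at 71.9 CPM against 36.3 CPM in ILCpro_KO, and Cd8a was also higher in ILCpro_WT. The rest were higher in ILCpro_KO. Among them Cd3d, Cd3e and Cd3g had 51.1, 23.0 and 25.1 CPM in ILCpro_KO and 2.79, 0.328 and 3.77 CPM in ILCpro_WT. In both libraries of the ILC progenitor gate the 10 ILC precursor (ILCP) markers were all detected, summing to 1051 CPM in ILCpro_KO and 2607 CPM in ILCpro_WT. Id2 alone gave 671 CPM of the sum in ILCpro_KO and 711 CPM in ILCpro_WT. Each of the other ILCP markers was also lower in ILCpro_KO, down to Cxcr6 at 1.37 CPM (6 UMIs) against 10.7 CPM. The 6 lymphoid progenitor markers were all detected in every library, at a sum of 719 CPM in ILCpro_KO, 446 CPM in ILCpro_WT and 2930 CPM in ALP. Flt3 and Il7r, which encode proteins of the ALP gate, are among them.

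Ikaros itself, Ikzf1, was expressed in all 3 populations. It is annotated at chr11:11685003-11772926 on the plus strand (GRCm38), within which the antisense model Gm12000 also lies. It was counted at 125.5 CPM (95% interval 115 to 136, 550 UMIs) in ILCpro_KO, 110.9 CPM (103 to 120, 676 UMIs) in ILCpro_WT and 188 CPM (175 to 202, 775 UMIs) in ALP. ALP was the highest library, and the intervals of both progenitor libraries lay below it and overlapped each other. The levels of ILCpro_WT were 1.70-fold lower than those of ALP (1.53 to 1.89), and those of ILCpro_KO 1.501-fold lower than those of ALP (1.34 to 1.68). Between ILCpro_KO and ILCpro_WT the ratio of Ikzf1 was 1.13 (1.01 to 1.27), and on this scale the median of all genes also lay slightly above 0, at 0.09 on the log2 scale. Of 9551 genes, 38.8% had a higher ratio than Ikzf1 in that comparison.

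RefSeq places alternative starts of Ikzf1 on chromosome 11, and the 250 bases before each of 2 of them are shown because TCF-1 is known to bind the core CTTTGA or CTTTGT and the genotypes compared differ in Tcf7. They are on the plus strand of GRCm38.p6, at chr11:11685675-11685924 and chr11:11689927-11690176, with the match in capitals.
Ikzf1 start 1: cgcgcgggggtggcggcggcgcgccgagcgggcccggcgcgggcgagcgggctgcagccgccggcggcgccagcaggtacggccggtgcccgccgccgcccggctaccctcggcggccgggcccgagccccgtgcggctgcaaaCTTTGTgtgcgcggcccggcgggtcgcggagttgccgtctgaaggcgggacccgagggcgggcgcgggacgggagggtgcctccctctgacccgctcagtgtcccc
Ikzf1 start 2: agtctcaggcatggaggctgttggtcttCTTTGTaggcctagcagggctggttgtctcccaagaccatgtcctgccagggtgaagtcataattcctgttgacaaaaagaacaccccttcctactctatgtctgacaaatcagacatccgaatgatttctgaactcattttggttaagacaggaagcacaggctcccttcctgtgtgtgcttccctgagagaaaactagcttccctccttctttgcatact
Each window holds 1 match on its plus strand, and the first is a CpG-rich promoter with 82% G or C while the second has 47.6%. On both strands, CTTTGA or CTTTGT occurs in 27.6% of 32851 RefSeq windows of this length, so 1 match in a window is common. TGGGAA, a sequence bound by Ikaros proteins, is in neither window on either strand and in 21.6% of all windows. Shorter or variant forms of it were not searched for. These letters describe the windows and say nothing of binding. The counted end of the transcript does not tell which start was used. The table used holds a window for 2 of the 4 members. The other is Ikzf5, whose window, not shown, also holds 1 match, CTTTGA.

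Helios, Ikzf2 (chr1:69531214-69687245, minus strand, overlapped by the antisense model Gm29114), was the member that differed most in absolute level. It reached 106.8 CPM (97.3 to 117, 468 UMIs) in ILCpro_KO, 383 CPM (368 to 399, 2334 UMIs) in ILCpro_WT and 26.0 CPM (21.3 to 31.4, 107 UMIs) in ALP. The intervals of the libraries were separate, with ILCpro_WT highest and ILCpro_KO between it and ALP. Ikzf2 was 3.59-fold lower in ILCpro_KO than in ILCpro_WT (3.25 to 3.97). Only 25 of 9551 genes lay further down in that comparison, ranked with 10 CPM added to both sides. The ILCpro_WT level was 14.7-fold that of ALP (12.1 to 18.1), and 8 of 9616 genes ranked higher. The ILCpro_KO level was 4.11-fold that of ALP (3.32 to 5.11), so the library labelled null for Tcf7 still stood above the lymphoid progenitors.

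Aiolos, Ikzf3 (chr11:98464902-98546031, minus strand), was low throughout. It had 5.25 CPM (3.33 to 7.87, 23 UMIs) in ILCpro_KO, 30.03 CPM (25.8 to 34.7, 183 UMIs) in ILCpro_WT and 0.486 CPM (0.0589 to 1.76) from 2 UMIs in ALP. It was 5.72-fold lower in ILCpro_KO than in ILCpro_WT (3.70 to 9.26). The ratio of ILCpro_WT to ALP was 61.8 (16.9 to 514) and that of ILCpro_KO to ALP 10.8 (2.67 to 94.5), both resting on the 2 UMIs of ALP. Neither of those UMIs came from the large ALP clusters described below, which had 0 UMIs in 527 cells and 0 in 241 cells. In ILCpro_KO 15 of the 23 UMIs came from 22 T-like cells described below, and without clusters of other lineages its level was 1.73 CPM, inside the interval of ALP. That interval is of the whole ALP library, with no clusters left out. Its large clusters, at 0 UMIs, had upper limits of 1.71 and 2.04 CPM. Most of the ILCpro_KO count thus came from the T-like cells. Whether the remaining level stood above that of ALP cannot be told from so few UMIs.

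Pegasus, Ikzf5 (chr7:131388652-131410521, minus strand, in a stretch that Fgfr2 and Pstk also overlap), did not separate the populations. Its level was 20.5 CPM (16.5 to 25.2, 90 UMIs) in ILCpro_KO, 18.2 CPM (14.98 to 21.9, 111 UMIs) in ILCpro_WT and 22.1 CPM (17.8 to 27.2, 91 UMIs) in ALP. All 3 intervals overlap. The ratio was 1.13 (0.844 to 1.502) for ILCpro_KO over ILCpro_WT, 0.824 (0.619 to 1.10) for ILCpro_WT over ALP and 0.928 (0.686 to 1.26) for ILCpro_KO over ALP. The widest difference these intervals allow is 1.62-fold, as a lower level in ILCpro_WT than in ALP.

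**Figure D1:**
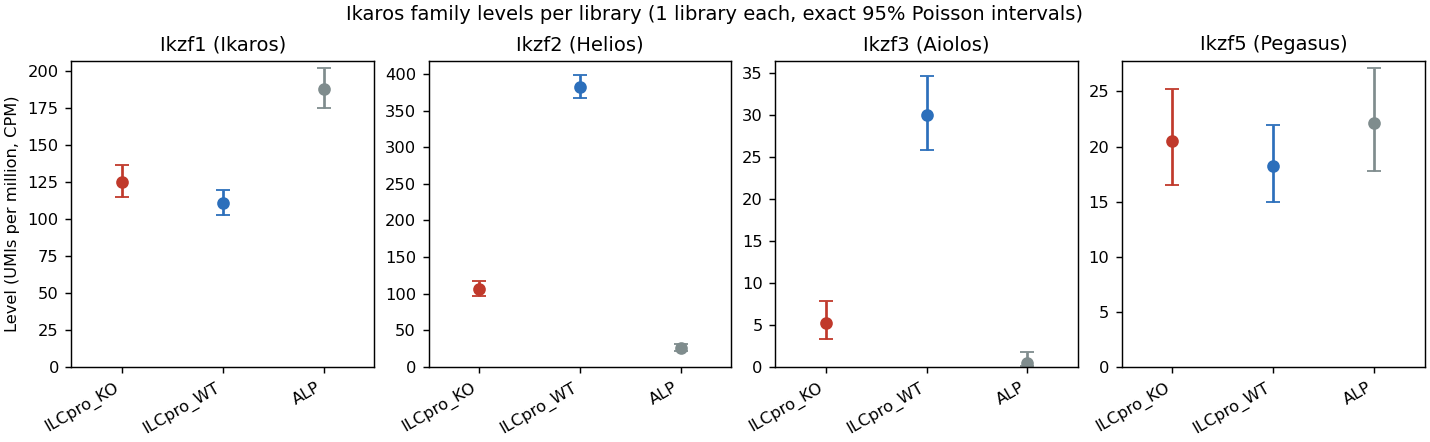
Level of each member in CPM (vertical axis, linear, from 0) in the ILCpro_KO, ILCpro_WT and ALP libraries, with 1 point per library and exact 95% Poisson intervals as bars. Ikzf2 and Ikzf3 peak in ILCpro_WT at 383 and 30.03 CPM, Ikzf1 peaks in ALP at 188 CPM, and the intervals of Ikzf5 overlap in all 3 libraries.

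Counted by a fixed rule, at least 2-fold with 10 CPM added to both sides, 2 of the 4 members were lower in ILCpro_KO than in ILCpro_WT (Ikzf2 and Ikzf3) and 0 were higher. The background for that rule was 0.869% of 9551 genes lower and 1.48% higher. Against ALP, Ikzf2 and Ikzf3 were higher in ILCpro_WT and no member was lower, where 2.11% of 9616 genes were higher and 3.06% lower. In ILCpro_KO against ALP, Ikzf2 was higher and no member lower, beside 2.01% of 9644 genes higher and 1.43% lower. All 4 members passed the minimum of 5 CPM in either library, Ikzf3 through the ILC progenitor libraries only. These comparisons share libraries pairwise and are not independent of each other.

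Set side by side, the members made up different mixtures in each population. Because 1 end of each transcript is counted, UMIs of different genes are on a per-transcript scale that does not grow with gene length, although capture may differ between genes. Of the 1137 UMIs of the 5 family genes in ILCpro_KO, Ikzf1 took 48.4% (45.4 to 51.3) and Ikzf2 41.2% (38.3 to 44.1). Of 3340 in ILCpro_WT, Ikzf1 took 20.2% (18.9 to 21.6) and Ikzf2 69.9% (68.3 to 71.4). Of 976 in ALP, Ikzf1 took 79.4% (76.7 to 81.9) and Ikzf2 10.96% (9.07 to 13.1). Ikzf1 thus led in ILCpro_KO and ALP, and Ikzf2 led in ILCpro_WT. Ikzf3 held 2.02% of the family in ILCpro_KO, 5.48% in ILCpro_WT and 0.205% in ALP, and Ikzf5 held 7.92% in ILCpro_KO, 3.32% in ILCpro_WT and 9.32% in ALP. The family summed to 259 CPM in ILCpro_KO, 548 CPM in ILCpro_WT and 237 CPM in ALP. Eos was rare, with 6 UMIs in ILCpro_KO, 36 in ILCpro_WT and 1 in ALP.

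**Figure D2:**
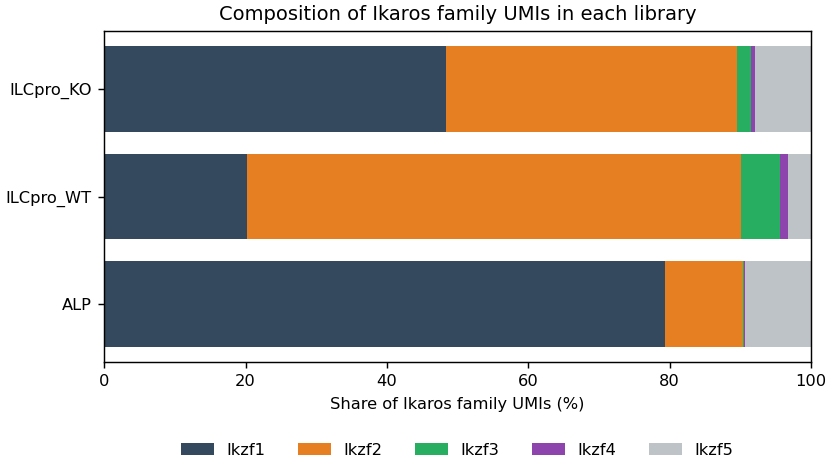
Share of the UMIs of the 5 Ikaros family genes taken by each gene (horizontal axis, percent) in the ILCpro_KO, ILCpro_WT and ALP libraries, 1 stacked bar per library. Ikzf1 takes 48.4% in ILCpro_KO, 20.2% in ILCpro_WT and 79.4% in ALP, and Ikzf2 takes 41.2% in ILCpro_KO, 69.9% in ILCpro_WT and 10.96% in ALP.

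Cells were then compared at equal depth by thinning each to 1000 UMIs, which left out 4 cells of ILCpro_WT that held fewer. An Ikzf2 UMI was found in 10.8% of ILCpro_KO cells (8.58 to 13.3), 29.5% of ILCpro_WT cells (27.4 to 31.6) and 2.10% of ALP cells. Without thinning the shares were 32.7% in ILCpro_KO, 55.2% in ILCpro_WT and 11.6% in ALP. In 64 cells of ILCpro_KO that carried neutrophil and monocyte genes, taken as cells outside the lymphoid lineage, the thinned Ikzf2 share was 1.56% (0.0396 to 8.40) at a median of 8515 UMIs before thinning. That value rests on 1 cell of another library, and under another random thinning it was 0 of 64 cells, with 3.33% in ALP, so it does not set the background of ALP. Ikzf1 was found in 10.8% of ILCpro_KO cells, 10.4% of ILCpro_WT cells and 17.5% of ALP cells, and without thinning in 50.7% of ILCpro_KO cells, 28.3% of ILCpro_WT cells and 56.8% of ALP cells. ILCpro_KO and ILCpro_WT thus differed in Ikzf1 detection without thinning, in the order of their depths, and at equal depth their intervals overlapped. Another random thinning gave an Ikzf1 share of 13.97% in ILCpro_KO and 10.1% in ILCpro_WT. Ikzf3 was found in 0.419% of ILCpro_KO cells, 3.84% of ILCpro_WT cells (3.002 to 4.82) and 0.247% of ALP cells, with 2.93% in ILCpro_KO, 8.04% in ILCpro_WT and 0.247% in ALP without thinning. None of the 64 myeloid cells had an Ikzf3 UMI, which allows a share of up to 4.69% by the limit of 3 counts and 5.601% by the exact interval. Ikzf5 was found in 1.68% of ILCpro_KO cells, 1.81% of ILCpro_WT cells and 1.36% of ALP cells, with 11.7% in ILCpro_KO, 5.63% in ILCpro_WT and 10.4% in ALP without thinning.

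Among single cells, counts of Helios reached furthest. Unthinned, 57 of the ILCpro_KO cells (7.96%), 340 of the ILCpro_WT cells (18.6%) and 2 of the ALP cells held 3 or more Ikzf2 UMIs. The highest count in a cell was 8 in ILCpro_KO, 16 in ILCpro_WT and 4 in ALP. For Ikzf1 the shares of cells with 3 or more UMIs were 6.28% in ILCpro_KO, 1.42% in ILCpro_WT and 9.88% in ALP, and the highest count was 6 in each. Thinned ILCpro_WT cells with both Ikzf2 and Ikzf3 numbered 33, where the product of the separate shares gives 20.6. Cells with both Ikzf1 and Ikzf2 numbered 61 in ILCpro_WT, beside 56.0 from the product, a smaller excess than for Helios and Aiolos.

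To see which cells carried the members, cells of all libraries were clustered on genes that leave out the family, the stage markers and cell cycle genes. Clusters were named for the type with most markers at least 2-fold up, where these numbered at least 3. A cluster stayed unnamed where a marker of another type came first among its leading genes. It also stayed unnamed where another type had more markers among those genes. Where nearly all cells of a cluster came from 1 library, a cell type and a property of that library cannot be told apart. In ILCpro_WT, Ikzf2 was highest in ILCP-like cluster 1, led by Lmo4, Tox2 and Rora, at 807 CPM (761 to 855) over 534 cells. Those cells were 29.2% of the library and held 49.2% of its Ikzf2 UMIs. Next came ILCP-like cluster 3, led by Fgf3, Tnni1 and Nrp2, at 464 CPM (426 to 504), and the 23 NK-like cells at 439 CPM (312 to 600), whose intervals overlap. The name of cluster 3 rests on 4 of 10 ILCP markers, Zbtb16, Tcf7, Pdcd1 and Rora, without Il7r, Gata3, Il18r1, Cxcr6, Icos and Id2. ILCP-like cluster 9, led by Stab2, Pxdc1 and Icos, had 278 CPM (207 to 366). Its name rests on 6 of 10 ILCP markers, without Zbtb16, Tcf7, Pdcd1 and Id2. Arg1 and Hlf, listed as markers of type 2 ILCs, were also among its leading genes, and Tcf7 there stood at 38.2 CPM. The name therefore does not tell ILC precursors from type 2 ILCs in cluster 9. The dividing cells of cluster 4 had 198 CPM, unnamed cluster 7 (Bhlhe41, Asb2) 184 CPM and unnamed cluster 0 (Cpa3, Nfil3, Mycn) 174 CPM. Those 3 levels do not differ beyond their intervals. Conventional dendritic cell (DC)-like cluster 6 was lowest among ILCpro_WT clusters of 20 or more cells, at 57.4 CPM (34.5 to 89.6).

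In ILCpro_KO, the highest Ikzf2 levels were in small clusters. The 22 T-like cells (Cd3d, Cd3e, Cd3g) had 453 CPM (331 to 607), the 31 cells of ILCP-like cluster 3 had 409 CPM (320 to 515), and the 27 cells of unnamed cluster 10, led by basophil and haemoglobin genes, had 365 CPM (275 to 475). Of the library's 468 Ikzf2 UMIs, the T-like cells held 45, cluster 3 held 72 and cluster 10 held 55. Basophil and mast cell markers, all 7 detected in both, summed to 804 CPM in ILCpro_KO and 380 CPM in ILCpro_WT, and their part in the library-wide Ikzf2 level was not tested. The larger clusters of ILCpro_KO ran from 89.4 CPM in cluster 0 to 48.6 CPM in DC-like cluster 6, and the neutrophil-monocyte-like cluster 8 had 21.9 CPM. ALP cells were even, at 23.7 CPM in lymphoid progenitor-like cluster 2 and 26.0 CPM in the dividing cluster 5.

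Within a cluster of the main resolution, the Helios difference between genotypes was at most as large as over whole libraries, where it was 3.59-fold. Of the 5 clusters with at least 20 cells of each genotype, Ikzf2 was lower in ILCpro_KO in 5, with the interval of the ratio below 1 in 3. The ratio of ILCpro_KO to ILCpro_WT was 0.279 (0.171 to 0.456) in cluster 7, 0.426 (0.321 to 0.561) in dividing cluster 4 and 0.515 (0.395 to 0.665) in cluster 0. It was 0.881 (0.680 to 1.13) in ILCP-like cluster 3 and 0.847 (0.479 to 1.55) in DC-like cluster 6, where the intervals span 1. Tcf7 in ILCP-like cluster 3 stood at 187 CPM in ILCpro_KO and 543 CPM in ILCpro_WT. Finer clusters held an ILCP-like group led by Fgf3 and Serpine2, with 5 cells of ILCpro_KO and 216 of ILCpro_WT. An unnamed finer group led by Klrd1 and Eomes had 28 and 153 cells, with an Ikzf2 ratio of 0.838 (0.626 to 1.11). The kinds of cells within cluster 3 may thus differ between the genotypes. With coarser clusters Ikzf2 was lower in 4 of 5, and with finer ones in 6 of 7, where the ratio was 0.221 and 0.267 in the lowest pair, a larger difference than over whole libraries. When each genotype was averaged over these 5 clusters with the same weights, those of ILCpro_WT, Ikzf2 came to 176 CPM in ILCpro_KO and 255 CPM in ILCpro_WT, a difference of -0.54 on the log2 scale. That weighting leaves out cluster 1, which held 11 cells of ILCpro_KO against 534 of ILCpro_WT. It also takes cluster 3 as 1 kind of cell. In library-wide sums, fewer cells of a kind and less RNA per cell cannot be told apart.

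Aiolos was confined to fewer cells. In ILCpro_WT, cluster 1 held 147 of the 183 Ikzf3 UMIs (80.3%) at 103 CPM (87.3 to 121), and cluster 9 another 18 UMIs at 98.2 CPM (58.2 to 155). The NK-like cells had 5 UMIs (56.2 CPM), cluster 4 had 7 and cluster 3 had 6, and clusters 0, 6 and 7 had 0 UMIs. ILCP-like cluster 3 thus had much Helios and little Aiolos, at 464 CPM of Ikzf2 and 4.89 CPM of Ikzf3, whereas cluster 9 had both. In ILCpro_KO, 15 of the 23 Ikzf3 UMIs (65.2%) came from the 22 T-like cells, at 151 CPM (84.6 to 249). Without the clusters named for other lineages, T-like cells among them, Ikzf3 stood at 1.73 CPM in ILCpro_KO and 31.7 CPM in ILCpro_WT, a difference of -4.19 on the log2 scale.

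Ikzf1 varied little among ILC progenitors at this resolution. Across the clusters held by both genotypes its level was 117 to 146 CPM in ILCpro_KO and 97.1 to 123 CPM in ILCpro_WT. The ratio was 1.11 to 1.29 in the 5 clusters, above 1 in each and with every interval spanning 1. Finer clusters separated an ILCP-like group of 216 ILCpro_WT cells led by Fgf3 and Serpine2, at 140 CPM (114 to 170), from an unnamed group of 78 led by Spry2 and Abhd2, at 65.7 CPM (38.3 to 105). Levels at the main resolution were 215 CPM (196 to 235) in ALP cluster 2, 162 CPM (144 to 182) in ALP cluster 5 and 242 CPM (155 to 360) in the T-like cells of ILCpro_KO. The lowest level was 69.4 CPM (49.1 to 95.3) in the neutrophil-monocyte-like cells of ILCpro_KO. Ikzf5 lay between 9.13 and 35.8 CPM in every cluster shown, with ratios of ILCpro_KO to ILCpro_WT from 0.718 to 2.90 and every interval spanning 1.

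**Figure D3:**
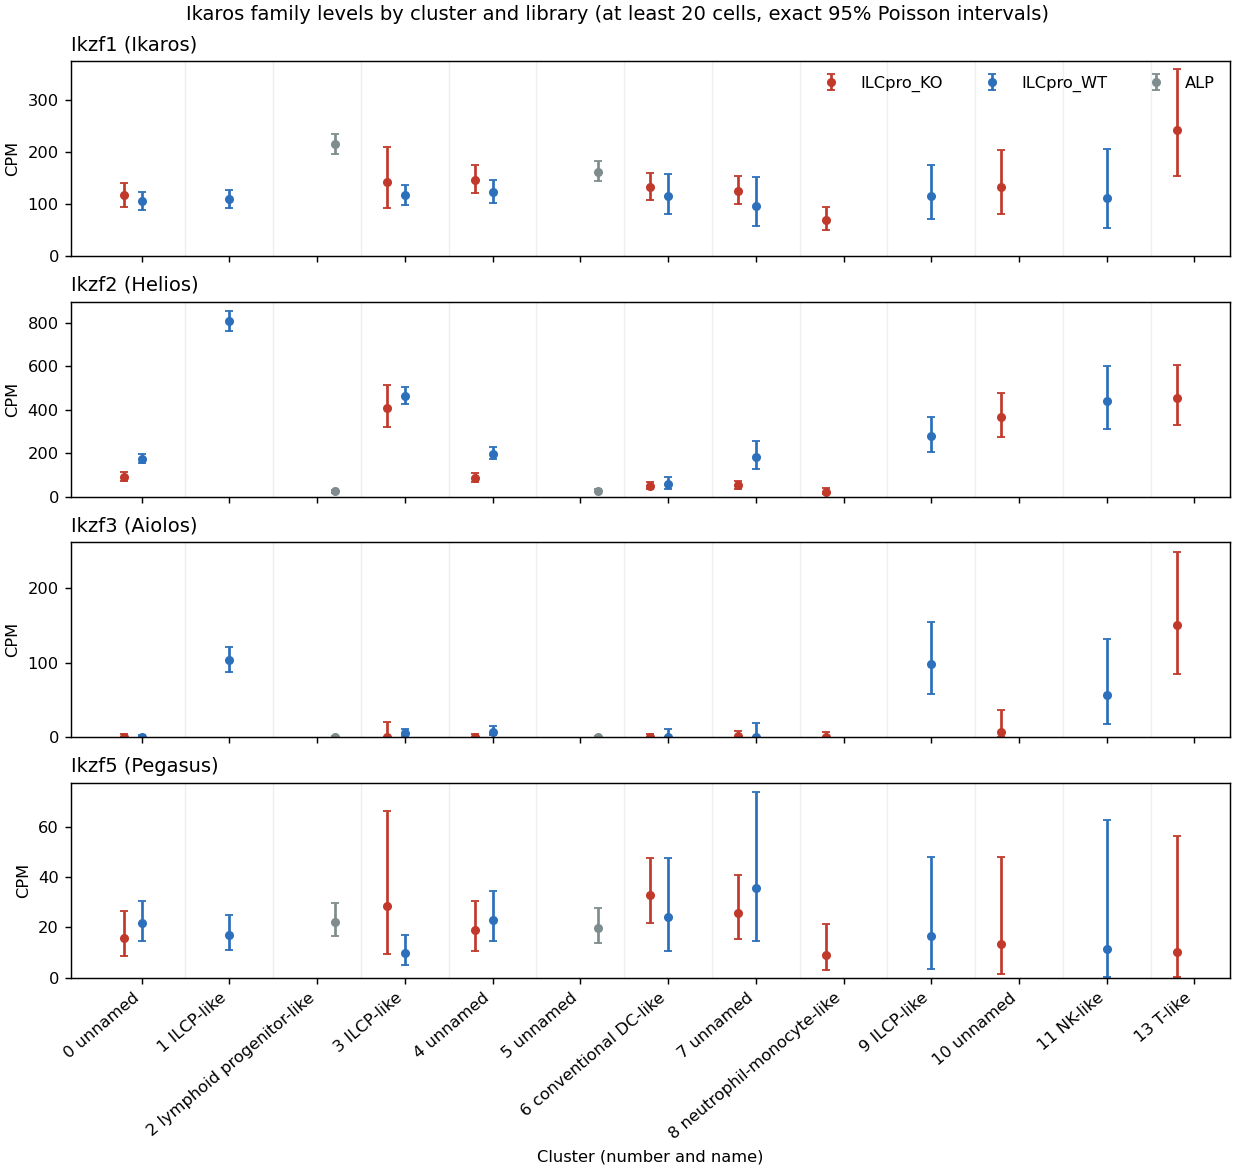
Level of each member in CPM (vertical axes, linear) by cluster (horizontal axis, number and name) and library, for clusters with at least 20 cells of that library, with exact 95% Poisson intervals. Ikzf2 reaches 807 CPM in ILCP-like cluster 1 of ILCpro_WT and 409 CPM in cluster 3 of ILCpro_KO, while Ikzf3 is seen mainly in clusters 1 and 9 of ILCpro_WT and in the T-like cells of ILCpro_KO.

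Single marker genes gave a view of the members that needed no clusters. In thinned ILCpro_WT cells, Ikzf2 was found in 38.2% of cells with a Tcf7 UMI (34.1 to 42.4) and 25.7% of those without (23.3 to 28.2). The gap was wider for Rora, a nuclear receptor of ILC precursors, at 46.7% with (42.5 to 50.9) and 21.6% without (19.4 to 24.0). It was also wide for Tox2, an HMG box factor, at 49.9% with and 24.3% without. Cells with Zbtb16, which encodes PLZF, had 40.7% and those without 25.9%. With Il7r, the IL-7 receptor chain, the share was 48.0%, and without it 27.2%. Flt3 and Dntt, genes of the preceding lymphoid stage, went the other way: Ikzf2 was found in 6.67% of 30 cells with Flt3 (0.818 to 22.1) and 29.9% of those without, and in 11.4% of 44 cells with Dntt (3.79 to 24.6) and 29.9% of those without.

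Ikzf3 followed Rora and Gata3 more than Tcf7. It was found in 9.62% of ILCpro_WT cells with Rora (7.33 to 12.3) and 1.20% of those without (0.671 to 1.97), and in 9.505% with Gata3 and 1.67% without. With Tcf7 the share was 4.12% (2.63 to 6.12) and without it 3.71% (2.74 to 4.90), whose intervals overlap. For Ikzf1 the shares were 10.0% with Tcf7 and 10.6% without, and 11.5% with Rora and 9.90% without. In ILCpro_KO, Ikzf2 was found in 40.7% of the 27 cells with Rora (22.4 to 61.2) and 9.58% of those without (7.49 to 12.03), so the share was higher with Rora in both genotypes. With Tcf7 UMIs in ILCpro_KO the Ikzf2 share was 13.2% (4.41 to 28.1) and without them 10.6% (8.40 to 13.2). In ALP, Ikzf1 was found in 25.9% of cells with Il7r (18.1 to 35.0) and 16.2% of those without (13.5 to 19.1).

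**Figure D4:**
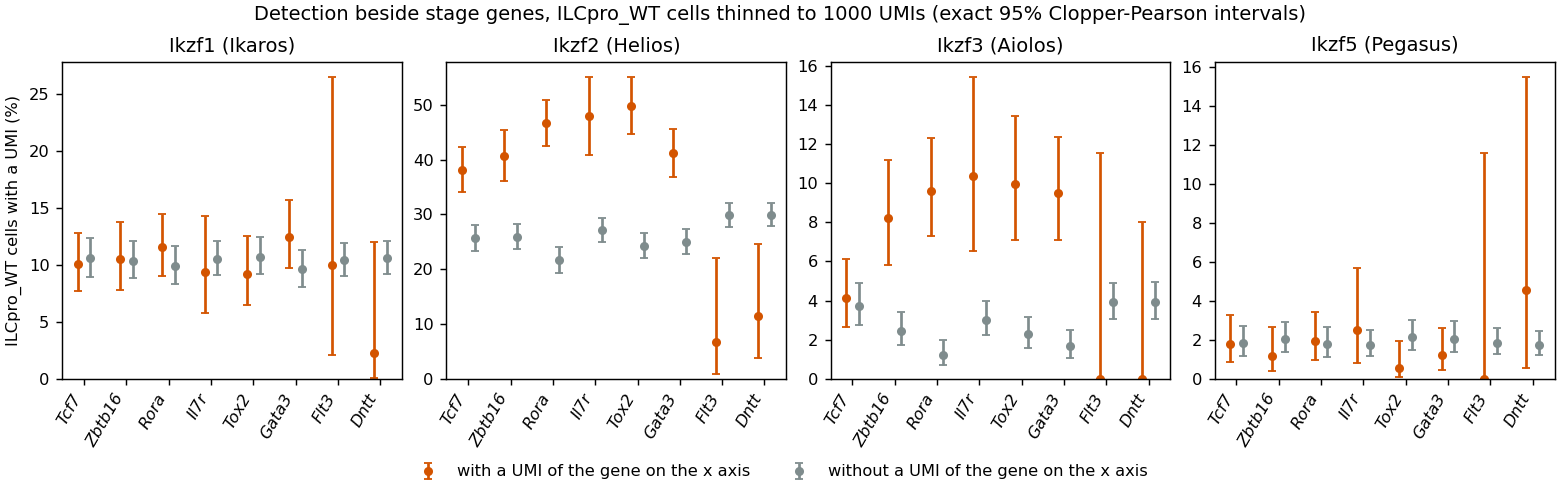
Share of ILCpro_WT cells with a UMI of each member (vertical axes, percent, after thinning to 1000 UMIs) among cells with and without a UMI of the gene on the horizontal axis, with exact 95% Clopper-Pearson intervals. Ikzf2 is found in 46.7% of cells with Rora and 21.6% of cells without, Ikzf3 in 9.62% with and 1.20% without, while Ikzf1 lies between 9.16% and 12.5% in every split except cells with Dntt, at 2.27%.

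Helios and Aiolos both varied with called cell cycle phase. In ILCpro_KO, Ikzf2 stood at 175 CPM in G1, 80.8 CPM in S and 78.7 CPM in G2/M. The ILCpro_WT values were 536, 192 and 219 CPM in the same phases, and those of ALP 25.0, 20.5 and 31.0 CPM. G1 was the highest phase in both genotypes of the ILC progenitor gate and not in ALP. Ikzf3 in ILCpro_KO had 11.2 CPM (14 UMIs) in G1, 3.91 CPM in S and 1.87 CPM (3 UMIs) in G2/M. In ILCpro_WT it had 43.6 CPM in G1, 20.1 CPM in S and 9.73 CPM in G2/M. Ikzf1 varied less with phase in the ILC progenitors, at 121, 116 and 138 CPM in ILCpro_KO and 106.5, 98.9 and 130 CPM in ILCpro_WT in G1, S and G2/M, with overlapping intervals of G1 and G2/M in each. In ALP it was highest in G1 at 223 CPM (192 to 256) and lowest in G2/M at 166 CPM (148 to 186). Cells called G1 made up 40.8% of ILCpro_KO, 64.0% of ILCpro_WT and 32.5% of ALP. Among G1 cells alone, Ikzf2 differed between ILCpro_KO and ILCpro_WT by -1.62 on the log2 scale.

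**Figure D5:**
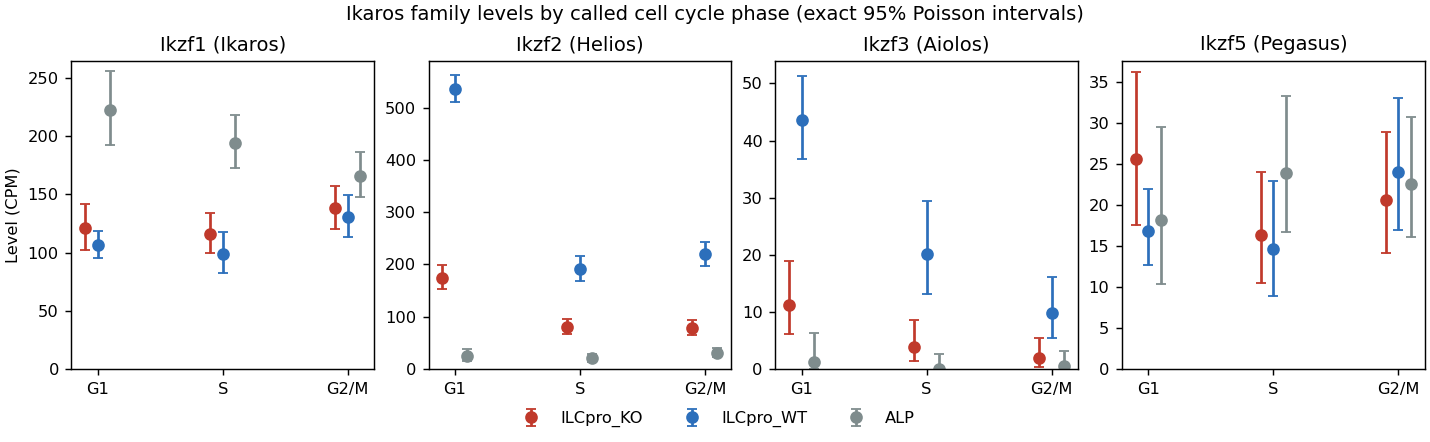
Level of each member in CPM (vertical axes, linear) by called cell cycle phase (horizontal axis) in ILCpro_KO, ILCpro_WT and ALP, with exact 95% Poisson intervals. Ikzf2 in G1 reaches 175 CPM in ILCpro_KO, 536 CPM in ILCpro_WT and 25.0 CPM in ALP.

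Over 15 sums of at least 30 cells, each a cluster within a library, the genes whose levels were most like those of each member were listed by Pearson correlation. These points share libraries and depth, so the coefficients are descriptions. For Ikzf2 they were Rora (r = 0.95), Fam189b (0.95), Tox2 (0.93), Gata3 (0.89) and Ssbp3 (0.89). For Ikzf3 they were Arg1 (0.98), Itgb3 (0.97), Skap1 (0.94), Lmo4 (0.93) and Ahcyl2 (0.92). The Ikzf3 coefficients rest mainly on clusters 1 and 9 of ILCpro_WT, at 103 and 98.2 CPM. The next highest of the 15 sums was 6.96 CPM, and the T-like and NK-like cells were too few to enter. Those of Ikzf1 were Ppp1r9a (0.90), Prps2 (0.90), Fam175a (0.87), Luc7l2 (0.87) and Rpgrip1 (0.86). Those of Ikzf5 were Ift22 (0.85), Usp37 (0.82), Ube2d1 (0.80), Cpox (0.80) and H2-DMb2 (0.79).

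The chromatin partners of the family differed less than Helios and Aiolos. Over all genes, 0.869% were at least 2-fold lower in ILCpro_KO than in ILCpro_WT and 1.48% higher. Of 21 NuRD and corepressor genes, all measured, 1 was lower and 0 were higher, with a median log2 ratio of 0.07 beside 0.09 over all genes. With at least 1000 genes per cell 0 were lower, and under both other scalings of the libraries the median turned negative, at -0.04 and -0.02. The gene called was Chd3, an ATPase of NuRD, at 76.0 CPM in ILCpro_KO, 183 CPM in ILCpro_WT and 121 CPM in ALP. Chd4, the main NuRD ATPase, had 335 CPM in ILCpro_KO, 418 CPM in ILCpro_WT and 305 CPM in ALP. Of the 8 genes of the cereblon ligase, which degrades Ikaros and Aiolos in human cells given thalidomide analogues, and of casein kinase 2, which phosphorylates Ikaros, none reached 2-fold in any comparison, with 7 measured between the genotypes.

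Lymphoid genes that Ikaros proteins are known to act on went both ways. Of 24 listed, 11 were measured in ILCpro_KO and ILCpro_WT, with a median log2 ratio of 0.59. Beside 1.48% of all genes higher in ILCpro_KO and 0.869% lower, 2 of the 11 were higher and 2 lower. The number higher was 4 with per-cell means, and 6 in G1 cells or with 1 CPM added. Flt3, a cytokine receptor of early progenitors, had 67.8 CPM in ILCpro_KO, 17.6 CPM in ILCpro_WT and 288 CPM in ALP. Dntt, which adds bases at antigen receptor joints, had 80.3 CPM in ILCpro_KO, 30.5 CPM in ILCpro_WT and 1452 CPM in ALP. Il7r had 9.35 CPM in ILCpro_KO, 96.2 CPM in ILCpro_WT and 146 CPM in ALP, and Hes1, a Notch target, 7.76 CPM in ILCpro_KO, 46.9 CPM in ILCpro_WT and 1.21 CPM in ALP. For ILCpro_WT against ALP, 2 of 15 measured genes were higher and 6 lower, beside 2.11% and 3.06% of all genes. For ILCpro_KO against ALP, 1 of 16 was higher and 6 lower, beside 2.01% and 1.43% of all genes. Flt3 and Il7r encode proteins of the ALP gate, so their calls against ALP are not independent of the sorting.

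Among 20 other transcription factors of ILC and lymphoid cells, 18 were measured between the genotypes. In ILCpro_KO, 7 were lower (Tcf7, Zbtb16, Gata3, Tox2, Rora, Ets1 and Bcl11b) and 1 was higher (Spi1), with a median log2 ratio of -0.38. Over all genes 0.869% were lower and 1.48% higher. Tcf7 is the gene that differs by genotype and is part of the ILC progenitor gate. Its calls here and against ALP are therefore not independent of the design. Tox2 had 13.5 CPM in ILCpro_KO and 220 CPM in ILCpro_WT, and Rora 48.1 CPM in ILCpro_KO and 449 CPM in ILCpro_WT. Helios, at 3.59-fold lower, was less far down than each of these 7, which ran from Gata3 at 4.51-fold lower (4.01 to 5.08) to Tox2 at 16.4-fold lower (12.6 to 21.6). Spi1, which encodes the myeloid factor PU.1, was 2.88-fold higher in ILCpro_KO (2.59 to 3.19) alongside the myeloid markers given above, and their part in it was not tested. For ILCpro_WT against ALP, 11 of 18 factors were higher and 2 lower, with a median of 2.04, beside 2.11% of all genes higher and 3.06% lower. For ILCpro_KO against ALP, 10 of 17 were higher and 2 lower, with a median of 1.23, beside 2.01% and 1.43% of all genes.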

How the data were processed

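Each library came as 1 matrix of whole-number counts deposited by the authors, in which an entry is the number of UMIs of a gene under a barcode. Per the submitters' processing notes, Cell Ranger 2.0.1, STAR 2.5.1b and bcl2fastq 2.17 were used with mm10, while roles, cell calling and strand settings are not given in the sources used here, so reads of overlapping and antisense genes cannot be told apart. Barcodes numbered 716 in ILCpro_KO, 1834 in ILCpro_WT and 812 in ALP. Cells with at least 500 genes and at most 10% mitochondrial UMIs were kept. UMIs were summed per library, cluster or phase and scaled to the total of that library, cluster or phase (CPM), and 3 UMIs equal 0.684 CPM in ILCpro_KO, 0.492 CPM in ILCpro_WT and 0.729 CPM in ALP.

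Intervals are exact at 95% (Poisson for levels, conditional binomial for ratios, Clopper-Pearson for shares), and the ratio step was tested on simulated data. Member ratios are of plain CPM. List counts, medians and ranks use 10 CPM added to both sides and genes with at least 5 CPM in either library. Clustering used scanpy 1.11.5 with 2000 variable genes, 30 components, 15 neighbours and Leiden resolution 1.0 (leidenalg 0.10.2). Doublets were kept, and an alternative removed the highest Scrublet scores (4 cells in ILCpro_KO, 27 in ILCpro_WT, 5 in ALP). Locations come from GENCODE vM21 on GRCm38 and promoter windows from RefSeq GRCm38.p6.

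The members, lists and naming rule were chosen with earlier results of these data known. Named genes are the members, Ikzf4, Tcf7, up to 5 genes per list with the largest ratios, the 5 genes most like each member among genes with at least 20 CPM in a library, and the leading genes of described clusters. Chd4 was named after its values were seen.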

Additional observations from a re-analysis of the deposited data

How the results depend on the processing

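Ratios of the members kept their direction under every alternative that gave a ratio, except that of Ikzf5 for ILCpro_KO against ALP, whose interval spans 1. Against ALP, Ikzf3 had a ratio in only 7 of 10 alternatives, because its ALP level was 0 in the rest. For ILCpro_KO against ILCpro_WT the Ikzf2 log2 ratio was -1.69 with at least 1000 genes per cell, -1.62 in G1 cells, -1.67 without clusters of other lineages and -0.54 weighted to shared clusters. That of Ikzf3 was -4.19 without other lineages, -4.46 when cluster 10 was left out too (an alternative chosen after seeing the data), -1.39 with 10 CPM added and -5.54 weighted to shared clusters, which rests on 1 UMI of ILCpro_KO and leaves out cluster 1 with 80.3% of the ILCpro_WT UMIs. The Ikzf5 ratio in G1 cells was 0.60 against ILCpro_WT and 0.50 for ILCpro_KO against ALP. For ILCpro_WT against ALP, Ikzf1 was -1.06 and Ikzf2 4.42 in G1 cells, and with 10 CPM added Ikzf2 was 3.45 and Ikzf3 1.93. For ILCpro_KO against ALP, Ikzf1 was -0.88 and Ikzf2 2.81 in G1 cells, and with 10 CPM added Ikzf2 was 1.70 and Ikzf3 0.54. Between the genotypes, 0 NuRD genes were lower with at least 1000 genes per cell. Lymphoid genes higher in ILCpro_KO numbered 4 with per-cell means, 6 in G1 cells and 6 with 1 CPM added, and other factors numbered 2 with at least 1000 genes per cell, with per-cell means, without other lineages and with 1 CPM added, and 4 in G1 cells. Another 179 values of member ratios and of list counts between the genotypes moved less than their counting error, or for counts less than 1.5 times. Of the shares, list medians, list counts against ALP, cluster counts and values over all genes, 78 moved further and 373 did not, and the Ikzf1 share in ILCpro_KO became 13.97% under another random thinning. The causes of these shifts were not tested. Both rescalings of the libraries left the members' directions as reported, with Ikzf2 between the genotypes at -1.96 and -1.94. The median of the NuRD list between the genotypes, 0.07 as reported, was -0.04 and -0.02 under them.

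With 1 library per group, animals and preparations cannot be told apart from genotype or gate. No paired analysis was possible because each group has 1 library. Levels of a few UMIs, as for Ikzf3 in ALP, limit the ratios that rest on them. Counts of all genes past 2-fold also moved with the setting, from 141 higher and 83 lower in ILCpro_KO against ILCpro_WT to 498 and 248 with 1 CPM added, to 88 higher without other lineages and to 129 lower with totals that leave out ribosomal and mitochondrial genes. Against ALP, in G1 cells lymphoid genes lower in ILCpro_WT numbered 10 in place of 6 and other factors lower 4 in place of 2, and lymphoid genes higher in ILCpro_KO numbered 2 in place of 1, or 4 with 1 CPM added.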
